A study of Homo sapiens with 4 samples.

Results

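The genes described here are 10 markers used to pick out liver tumour-initiating cells: EPCAM, PROM1, CD24, CD44, CD47, ANPEP, THY1, SOX9, ALDH1A1 and ICAM1. They were chosen by gene symbol, and all 10 were found among the 25343 symbols of the deposited expression tables. RNA-seq was made from 4 cultures of human hepatocellular carcinoma lines, with 1 library in each of 4 groups. The groups were Huh7 cells with an shRNA against SCD1 (gene symbol SCD), Huh7 cells with a non-target control shRNA, PLC/PRF/5 cells with the same SCD1 shRNA, and PLC/PRF/5 cells with the non-target control. Every culture had been infected with a lentivirus and selected with puromycin, so the controls share the vector and the drug with the knockdown cells. A single SCD1 hairpin was used in both lines, no label says whether the selected cells were pools or clones, and no label says that the libraries came from separate experiments. Knockdown against control addresses which genes respond to loss of SCD, the enzyme that puts the double bond into saturated fatty acids.

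Tumour-initiating cells are the fraction of a tumour that can seed a new one, and in liver cancer they have been enriched by sorting on surface proteins, each of which selects an overlapping but not identical fraction. Most of the 10 are surface proteins: EPCAM and PROM1 are found on fetal hepatic progenitors and biliary cells, CD44 and ICAM1 are adhesion receptors, and CD24, CD47, ANPEP and THY1 are other membrane proteins. The remaining members are not on the surface, since SOX9 is a nuclear transcription factor and ALDH1A1 a cytosolic enzyme. A marker's RNA level in a bulk library is an average over all cells, so fewer positive cells and less RNA per cell cannot be told apart, and no value here counts sorted cells.

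Expression was deposited as TPM (a transcript abundance scaled by transcript length and library total), which carries no sequencing depth, so depth is unknown for every library. Between 17405 and 17931 symbols were above 0 per library. SCD stood at 137 TPM in Huh7 knockdown cells against 1755 TPM in Huh7 control cells, and at 178 TPM in PLC/PRF/5 knockdown cells against 1111 TPM in PLC/PRF/5 control cells, 12.8-fold and 6.25-fold lower. Of 8 hepatocyte markers, all 8 reached 1 TPM in both Huh7 libraries and 7 in both PLC/PRF/5 libraries, where the thyroid hormone carrier gene TTR was at 0.16 TPM in knockdown and 0.41 TPM in control cells. Their levels were unlike, with a sum of 17195 and 14915 TPM in Huh7 knockdown and control cells. In PLC/PRF/5 knockdown and control cells the sum was 3308 and 4888 TPM. Not every gene had that order, since APOB was higher in PLC/PRF/5. With knockdown, the hepatocyte list had a median log2 fold change of -0.30 for Huh7 and of -0.73 for PLC/PRF/5, with TF and FGB at least 2-fold lower in PLC/PRF/5 and 4 of 7 genes lower in both lines, where 22.4% of all genes were. The list did not move as a whole, since HNF4A was higher in both lines (0.27 in Huh7 and 0.14 in PLC/PRF/5). In Huh7, ALB (0.69) and FGB (0.25) were higher too. Of 6 endothelial markers, PECAM1 alone reached 1 TPM, and the list summed to between 1.5 and 3.4 TPM per library. The leukocyte list of 8 genes summed to between 1032 and 2614 TPM, nearly all from lysozyme (LYZ), while the defining gene PTPRC (CD45) was at 0.99 TPM or less and CD53 was listed at 0 in all 4 libraries. Other genes of the list were found, with CD68 between 8.76 and 27.0 TPM over the 4 libraries. In Huh7 knockdown and control cells CD3D was at 9.87 and 9.71 TPM, and CD14 at 2.81 and 2.53 TPM. The fibroblast and stellate cell list of 7 genes summed to 79.9 TPM in Huh7 knockdown and 62.0 TPM in Huh7 control cells, and to 2.54 and 3.47 TPM in PLC/PRF/5 knockdown and control cells. In Huh7 the list had genes on both sides of 0, with LUM at 60.0 TPM in knockdown against 10.8 TPM in control cells, COL1A2 at 9.63 against 30.9 TPM, PDGFRB at 4.96 against 10.2 TPM and PDGFRA at 2.32 against 6.15 TPM, and a median log2 fold change of -0.91 over 5 genes. The part of these genes in the differences below was not tested.

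EPCAM and PROM1 were abundant in Huh7 and close to absent in PLC/PRF/5, SOX9, CD44, CD24 and ALDH1A1 were also higher in Huh7 by smaller amounts, and ANPEP had the reverse order. With SCD knocked down, by plain TPM, CD44 was 2.17-fold higher in Huh7 and 2.32-fold higher in PLC/PRF/5, and EPCAM was 2.62-fold higher in Huh7, while ALDH1A1 and ANPEP were lower in both lines. No member passed the test of a knockdown difference shared by the lines, and 7 of the 9 members that could be tested passed the test of a difference between the lines. Of all 13813 genes fitted, 1 passed the knockdown test, and 28.3% passed the line test as higher in Huh7 and 31.5% as lower. SCD, the targeted gene, did not pass the knockdown test either (mean difference -3.15, limma unadjusted p = 8.4e-05, adjusted p = 0.128). Not passing that test is therefore not evidence that a gene did not respond. THY1, under 1 TPM in every library, was the member left out of the tests.

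**Figure D1:**
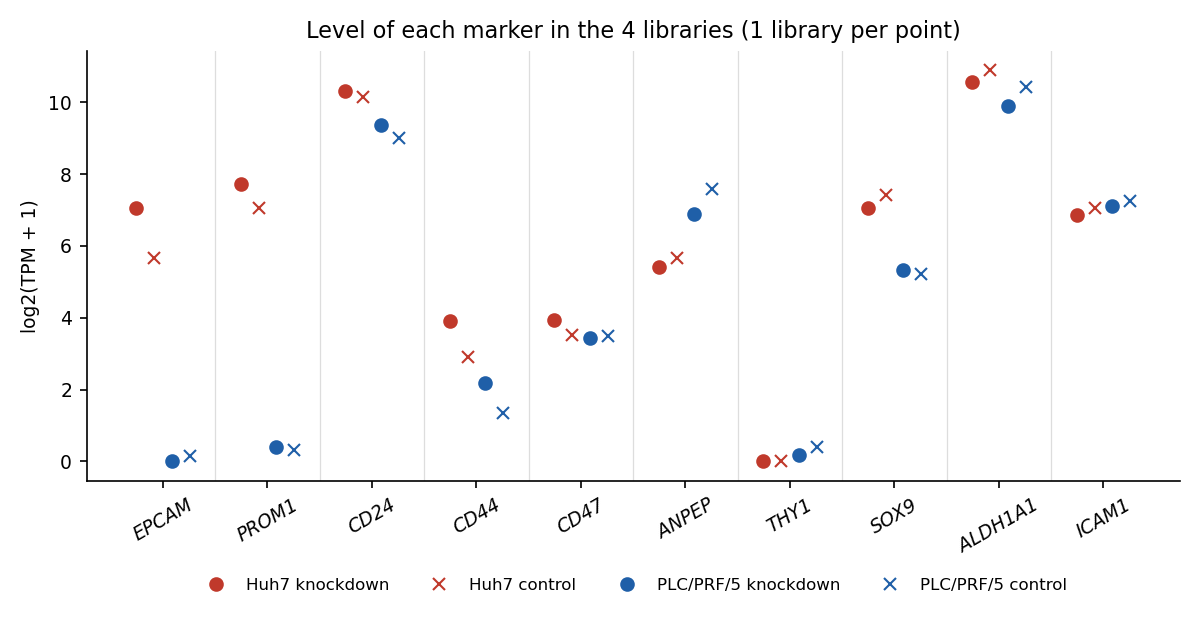
Level of each of the 10 markers as log2(TPM + 1) on the vertical axis; each point is 1 library, red for Huh7 and blue for PLC/PRF/5, filled circles for SCD knockdown and crosses for control. EPCAM and PROM1 lie between 5.68 and 7.72 in Huh7 and at 0.40 or less in PLC/PRF/5, and ALDH1A1 and CD24 are the highest members in all 4 libraries.

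EPCAM encodes a cell-cell adhesion protein of epithelial progenitors that, when cleaved, releases a fragment acting in the nucleus. It was at 131 TPM in Huh7 knockdown cells and 50.1 TPM in Huh7 control cells, while in PLC/PRF/5 it was listed at 0 in knockdown cells and stood at 0.11 TPM in control cells. The Huh7 libraries were both far above the PLC/PRF/5 libraries, and within Huh7 the knockdown library was the higher. By rank among all symbols, EPCAM was number 1423 in Huh7 knockdown cells against number 3674 in Huh7 control cells. Its log2 fold change in Huh7, on the log2(TPM + 1) scale used for all fold changes here, was 1.37, a size larger than that of 98.2% of the genes considered in that line. In PLC/PRF/5 the gene was too low for a fold change to be read.

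PROM1 encodes CD133 (prominin-1), a cholesterol-binding protein of membrane protrusions. It was at 210 TPM in Huh7 knockdown cells and 131 TPM in Huh7 control cells, against 0.32 and 0.25 TPM in PLC/PRF/5 knockdown and control cells. As with EPCAM, expression was found in Huh7 and hardly at all in PLC/PRF/5. The Huh7 log2 fold change was 0.67, below the 2-fold size, and larger than that of 88.9% of genes in size.

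RefSeq lists 4 starts for PROM1, which a gene-level TPM does not separate. The windows around the most CpG-rich and the most CpG-poor of them are printed, from 250 bases before to 50 bases after the start, because PROM1, with EPCAM, is a member found in Huh7 and hardly at all in PLC/PRF/5. Both come from the minus strand of GRCh38.p14, a later build than the hg19 named in the submitters' processing notes, and run 5′ to 3′. Capitals mark matches, on either strand, to the GC box GGGCGG, the TCF/LEF core CTTTGA and the HNF1 core GTTAAT.
PROM1 CpG-rich start, chr4:16083680-16083979: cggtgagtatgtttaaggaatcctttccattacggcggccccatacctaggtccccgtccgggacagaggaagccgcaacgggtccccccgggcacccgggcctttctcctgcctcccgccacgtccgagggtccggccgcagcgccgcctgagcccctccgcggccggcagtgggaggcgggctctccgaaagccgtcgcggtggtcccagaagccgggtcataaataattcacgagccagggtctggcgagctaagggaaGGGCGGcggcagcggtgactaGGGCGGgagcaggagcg
PROM1 CpG-poor start, chr4:16076069-16076368: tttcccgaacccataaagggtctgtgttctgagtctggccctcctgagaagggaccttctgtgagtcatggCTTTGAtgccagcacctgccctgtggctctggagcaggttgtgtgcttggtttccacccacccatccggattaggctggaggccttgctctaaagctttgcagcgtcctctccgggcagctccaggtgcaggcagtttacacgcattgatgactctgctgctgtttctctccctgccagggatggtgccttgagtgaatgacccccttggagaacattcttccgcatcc
The CpG-rich window holds 32 CpG dinucleotides and 2 GC boxes at 68.7% GC. The CpG-poor window holds 6 CpG dinucleotides and 1 TCF/LEF core at 56.3% GC. Over the 35116 promoter windows of the table the median was 14 CpG dinucleotides, a GC box was present in 45.0% and a TCF/LEF core in 12.9%. These letters are a description of the windows, and no file here measures which start was used.

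CD44 encodes the receptor for hyaluronan, whose splice forms differ between epithelial and mesenchymal cells and are summed in these values. It was at 13.9 TPM in Huh7 knockdown cells and 6.43 TPM in Huh7 control cells, and at 3.57 TPM in PLC/PRF/5 knockdown cells and 1.54 TPM in PLC/PRF/5 control cells. In both lines the knockdown library was the higher, and Huh7 lay above PLC/PRF/5 in each arm. The ratio of plain TPM was 2.17 in Huh7 and 2.32 in PLC/PRF/5, and the log2 fold changes were 1.01 and 0.85, a gap of 0.16 between the lines. CD44 had the largest mean knockdown difference of the members, 0.93 with a standard error of 0.18 over the 2 lines, which did not pass in limma (unadjusted p = 0.0041, adjusted p = 0.166 over all genes). Its 2-fold size in Huh7 was lost when libraries were rescaled by median ratios (log2 fold change 0.92), and PLC/PRF/5 stood at 1.16 with a pseudocount of 0.1 and at 0.39 with a pseudocount of 5. With a pseudocount of 5 the mean over the lines was 0.56.

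CD24 encodes a small, heavily glycosylated, lipid-anchored protein that binds the inhibitory receptor Siglec-10 on macrophages. It was the second most abundant member in every library, at 1274 TPM in Huh7 knockdown cells, 1141 TPM in Huh7 control cells, 654 TPM in PLC/PRF/5 knockdown cells and 517 TPM in PLC/PRF/5 control cells. The knockdown library was slightly the higher in each line, by 0.16 in Huh7 and by 0.34 in PLC/PRF/5 on the log2 scale, both inside the 5th to 95th percentile of all genes. The mean of 0.25 (standard error 0.09) did not pass in limma (unadjusted p = 0.0431, adjusted p = 0.266). In GENCODE 29, 12.7% of the 30-base words in its longest coding transcript also occur in other genes, 6.3% in the pseudogene CD24P4, the largest shared portion among the members, so its level is less certain.

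CD47 encodes the integrin-associated protein that signals through SIRPα on macrophages to prevent phagocytosis. It was at 14.4 TPM in Huh7 knockdown cells and 10.5 TPM in Huh7 control cells, and at 9.92 TPM in PLC/PRF/5 knockdown cells and 10.2 TPM in PLC/PRF/5 control cells. The Huh7 knockdown library was the highest and the other 3 were nearly level. The log2 fold changes were 0.42 in Huh7 and -0.04 in PLC/PRF/5, and their mean of 0.19 (standard error 0.18) did not pass in limma (adjusted p = 0.597).

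ANPEP encodes CD13 (aminopeptidase N), a membrane peptidase of the bile canaliculus that marks semiquiescent cells in liver cancer. It was at 41.7 TPM in Huh7 knockdown cells and 49.3 TPM in Huh7 control cells, against 117 TPM in PLC/PRF/5 knockdown cells and 190 TPM in PLC/PRF/5 control cells. Both PLC/PRF/5 libraries lay above both Huh7 libraries, the reverse of the order of EPCAM and PROM1. In both lines the knockdown library was the lower, 1.18-fold in Huh7 and 1.63-fold in PLC/PRF/5 by plain TPM. The log2 fold changes were -0.24 and -0.70, with a mean of -0.47 (standard error 0.14) that did not pass in limma (unadjusted p = 0.0225, adjusted p = 0.223).

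ANPEP is known to be read from an upstream start in myeloid cells and fibroblasts and from a start next to the coding region in epithelial cells. Both windows, of the same extent, build and strand as those of PROM1 and with the same motifs in capitals, are printed because ANPEP is the member with the reverse order between the lines.
ANPEP upstream start, chr15:89814803-89815102: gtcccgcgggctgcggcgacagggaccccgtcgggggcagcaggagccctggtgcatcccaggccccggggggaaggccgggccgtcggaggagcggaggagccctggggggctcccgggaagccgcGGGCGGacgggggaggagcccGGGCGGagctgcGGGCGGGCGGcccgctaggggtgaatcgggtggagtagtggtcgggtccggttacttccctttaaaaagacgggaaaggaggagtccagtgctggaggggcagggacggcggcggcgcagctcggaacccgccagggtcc
ANPEP downstream start, chr15:89806579-89806878: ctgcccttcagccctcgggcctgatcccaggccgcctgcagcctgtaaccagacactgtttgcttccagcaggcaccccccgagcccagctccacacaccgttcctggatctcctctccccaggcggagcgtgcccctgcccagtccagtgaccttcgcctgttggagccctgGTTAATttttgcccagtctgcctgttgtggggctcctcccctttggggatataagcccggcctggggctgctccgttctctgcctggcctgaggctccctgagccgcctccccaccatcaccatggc
The upstream window holds 4 GC boxes, the last a pair that overlap, and 32 CpG dinucleotides. The downstream window holds 10 CpG dinucleotides, no GC box and 1 HNF1 core, a sequence found in 6.9% of all windows. A gene-level TPM sums both starts.

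ICAM1 encodes an adhesion receptor that leukocytes bind through the integrin LFA-1 and that NF-kB induces. It was at 116 TPM in Huh7 knockdown cells, 131 TPM in Huh7 control cells, 137 TPM in PLC/PRF/5 knockdown cells and 151 TPM in PLC/PRF/5 control cells. All 4 libraries were close, and the knockdown library was the lower in each line. The mean log2 fold change was -0.16 (standard error 0.09) and did not pass in limma (adjusted p = 0.375). THY1 encodes CD90, a lipid-anchored protein of mesenchymal cells, neurons and T cells. It was listed at 0 in both Huh7 libraries and stood at 0.12 TPM in PLC/PRF/5 knockdown cells and 0.31 TPM in PLC/PRF/5 control cells, too low for a fold change to be read.

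SOX9 encodes the transcription factor of the biliary lineage. It was at 132 TPM in Huh7 knockdown cells and 171 TPM in Huh7 control cells, and at 39.3 TPM in PLC/PRF/5 knockdown cells and 35.9 TPM in PLC/PRF/5 control cells. Huh7 lay above PLC/PRF/5 in each arm. Within Huh7 the knockdown library was the lower, with a log2 fold change of -0.37, and within PLC/PRF/5 the value was 0.13, which became -0.01 when libraries were rescaled by median ratios. The mean of -0.12 (standard error 0.15) did not pass in limma (adjusted p = 0.678).

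ALDH1A1 encodes a retinaldehyde dehydrogenase that makes retinoic acid and whose activity is used to sort stem-like cells. It was the most abundant member in every library, at 1516 TPM in Huh7 knockdown cells, 1896 TPM in Huh7 control cells, 955 TPM in PLC/PRF/5 knockdown cells and 1376 TPM in PLC/PRF/5 control cells. The knockdown library was the lower in each line, 1.25-fold in Huh7 and 1.44-fold in PLC/PRF/5 by plain TPM. The log2 fold changes were -0.32 and -0.53, and their mean of -0.42 (standard error 0.10) did not pass in limma (unadjusted p = 0.0076, adjusted p = 0.181). ALDH1A1 and CD24 together made up between 80.9% and 84.7% of the summed TPM of the 10 members. Beside these stand the hepatocyte list's medians of -0.30 and -0.73 given above, whose part in the ALDH1A1 and ANPEP differences was not tested.

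**Figure D2:**
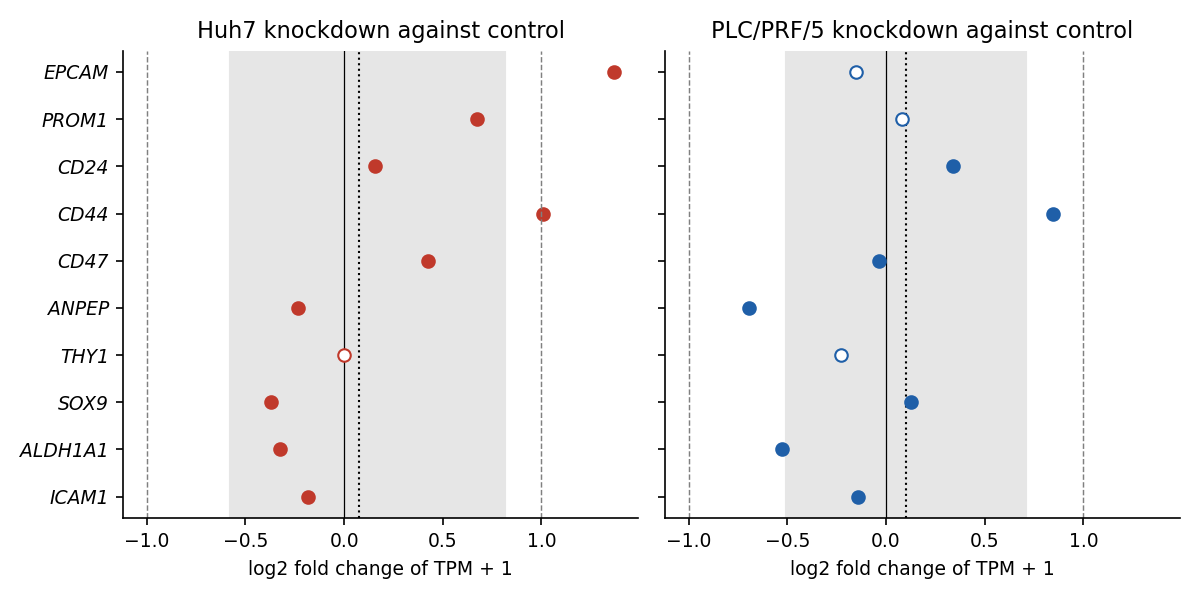
Log2 fold change of TPM + 1, knockdown against control, for the 10 markers in Huh7 (left) and PLC/PRF/5 (right); the grey band spans the 5th to 95th percentile of all genes with TPM of at least 1 in the pair, the dotted line is their median, dashed lines mark 2-fold and open circles mark genes under 1 TPM in both libraries. EPCAM (1.37) and CD44 (1.01) lie right of the band in Huh7, CD44 (0.85) right of it and ANPEP (-0.70) and ALDH1A1 (-0.53) left of it in PLC/PRF/5.

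Within each line there is 1 library per arm, so a difference has no replicate check and is described by size alone. In Huh7, 2 of 9 members with TPM of at least 1, EPCAM and CD44, were at least 2-fold higher in knockdown cells, as were 3.10% of the 13485 genes considered, and no member was at least 2-fold lower, as were 1.54%. In PLC/PRF/5, none of the 7 members considered was at least 2-fold higher or lower on the log2(TPM + 1) scale, against 1.72% and 1.11% of 13057 genes. CD44, 2.32-fold higher there by plain TPM, was at 0.85 on that scale. The members' median log2 fold change was 0.16 in Huh7, beside 0.08 over all genes, and -0.04 in PLC/PRF/5, beside 0.10. Members therefore lay on both sides of the median of all genes in each line.

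Direction was shared by the lines for 5 of the 7 members considered in both. CD24 and CD44 were higher in the knockdown library of both lines, as were 46.5% of the 12064 genes considered in both. ALDH1A1, ANPEP and ICAM1 were lower in both, as were 22.4%. CD47 and SOX9 had opposite signs, as did 31.0%, and in PLC/PRF/5 their values were the smallest in size among the 7. At an unadjusted p under 0.05 in limma there were 2 members on the higher side, CD24 and CD44, where 12.7% of the 13813 genes fitted were, and 2 on the lower side, ALDH1A1 and ANPEP, where 5.24% were. At an adjusted p under 0.05 there were 0 of 9 members on either side, where 0.00% of all genes fitted were on the higher side and 0.00724%, a single gene, on the lower. The fit has 1 residual degree of freedom, and the libraries were single. Each p-value sets the size of the mean difference against a variance drawn mostly from all genes fitted. The rest of that variance comes from how alike the lines moved, with no replicate cultures.

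Between the lines, PROM1 and EPCAM stood apart in size. In the limma fit over both arms, PROM1 was higher in Huh7 by 7.02 on the log2 scale (standard error 0.20, adjusted p = 0.000174) and EPCAM by 6.28 (standard error 0.39, adjusted p = 0.000558). These sizes depend on the pseudocount, since PLC/PRF/5 is near 0: EPCAM differed by 9.13 and PROM1 by 8.76 with a pseudocount of 0.1, and EPCAM by 4.10 and PROM1 by 5.02 with a pseudocount of 5, so their order is not fixed. Differences of this size or more were rare, since those of 99.7% and 99.5% of the genes fitted were smaller. In plain TPM, PROM1 was 656-fold higher in Huh7 in the knockdown libraries and 524-fold higher in the control libraries, with PLC/PRF/5 levels near 0 and of unknown depth beneath the ratio.

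SOX9, CD44, CD24 and ALDH1A1 were also higher in Huh7, and ANPEP was lower. SOX9 differed by 1.97 (adjusted p = 0.00084 in limma), or 3.36-fold in the knockdown libraries and 4.76-fold in the control libraries. CD44 differed by 1.63 (adjusted p = 0.00209), CD24 by 1.05 (adjusted p = 0.00115) and ALDH1A1 by 0.56 (adjusted p = 0.00699). ANPEP differed by -1.70 (adjusted p = 0.00105), 2.81-fold lower in Huh7 in the knockdown libraries and 3.86-fold lower in the control libraries. CD47 (0.27, standard error 0.18, adjusted p = 0.266) and ICAM1 (-0.22, standard error 0.09, adjusted p = 0.0791) did not pass, and their 95% intervals run between -0.22 and 0.75 for CD47 and between -0.44 and 0.0022 for ICAM1.

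With 6 members passing as higher and 1 as lower in Huh7, the members are to be read beside 28.3% of all genes passing as higher and 31.5% as lower. Each p-value here sets the size of the difference between the lines against a variance drawn mostly from all genes fitted. A smaller part of that variance is the gene's own shift in this difference from control to knockdown libraries, with no replicate cultures. By size, 4 of 9 members were at least 2-fold higher in Huh7 in the knockdown libraries and 1 was at least 2-fold lower, where 15.6% and 15.1% of all genes were. In the control libraries the counts were 5 and 1, where 15.8% and 14.9% of all genes were, with CD24 the member past 2-fold there (2.21-fold) and short of it in the knockdown libraries (1.95-fold).

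**Figure D3:**
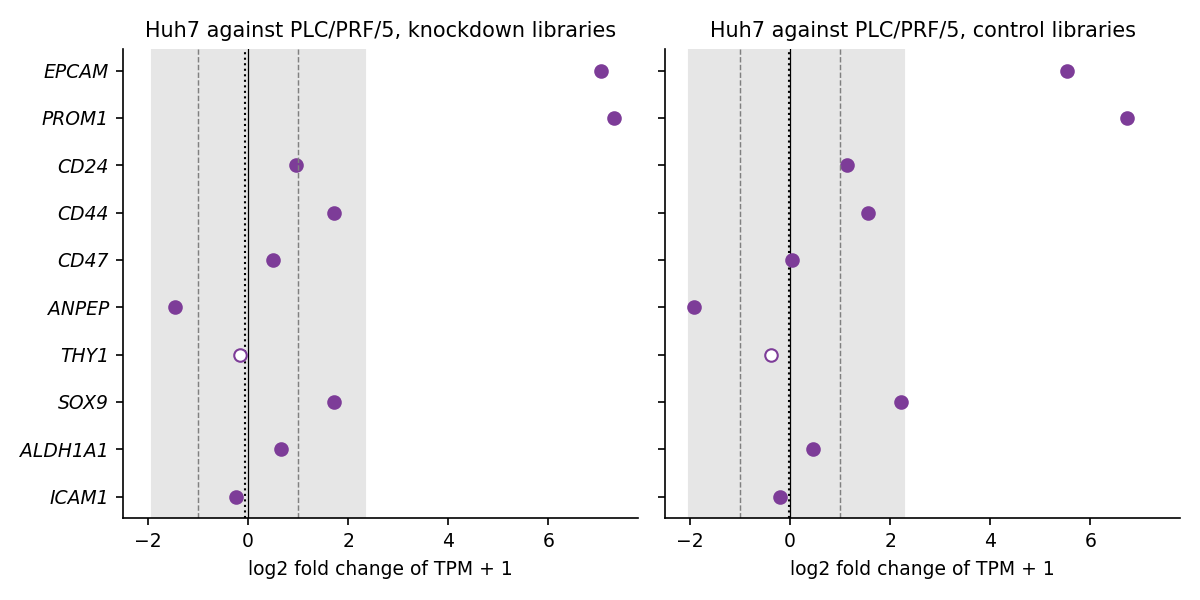
Log2 fold change of TPM + 1, Huh7 against PLC/PRF/5, for the 10 markers in the knockdown libraries (left) and the control libraries (right); the grey band spans the 5th to 95th percentile of all genes with TPM of at least 1 in the pair, the dotted line is their median, dashed lines mark 2-fold and open circles mark genes under 1 TPM in both libraries. EPCAM and PROM1 lie far right of the band in both arms, at 7.04 and 7.32 in the knockdown libraries and 5.52 and 6.72 in the control libraries.

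The order of the members by level, which TPM allows because it is scaled by length, was alike at the top and unlike below. ALDH1A1 and CD24 led in all 4 libraries. In Huh7 knockdown cells PROM1, SOX9, EPCAM and ICAM1 followed, and in Huh7 control cells SOX9, ICAM1, PROM1, EPCAM and ANPEP did; SOX9 and EPCAM in the knockdown cells, and PROM1 and ICAM1, and EPCAM and ANPEP, in the control cells, were less than 1 TPM apart. In PLC/PRF/5 the next were ICAM1, ANPEP and SOX9 in knockdown cells and ANPEP, ICAM1 and SOX9 in control cells. With 1 library per group, no difference between neighbours in this order could be tested.

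Genes known to act with EPCAM had several members that were higher in Huh7 knockdown cells and none past 2-fold in PLC/PRF/5. The list holds claudins, tetraspanins and membrane proteases, 18 genes in all, of which 4 of 16 considered were at least 2-fold higher in Huh7 and none lower, where 3.10% and 1.54% of all genes were. In PLC/PRF/5 none of 14 was past 2-fold, where 1.72% of all genes were higher and 1.11% lower. This list, like those that follow, was chosen with earlier results of these data known, so its counts and median give no independent support. The membrane serine protease gene ST14 (matriptase), which cleaves EPCAM, was at 10.2 TPM in Huh7 knockdown cells against 2.10 TPM in Huh7 control cells, and at 0.22 against 0.07 TPM in PLC/PRF/5. SPINT1, which encodes a matriptase inhibitor, was at 20.3 TPM in Huh7 knockdown cells against 7.94 TPM in Huh7 control cells, and at 0.15 against 0.12 TPM in PLC/PRF/5. The tight junction gene CLDN4 was at 10.0 TPM in Huh7 knockdown cells against 3.46 TPM in Huh7 control cells, and at 5.60 against 5.57 TPM in PLC/PRF/5. All were higher in the Huh7 knockdown library, while in PLC/PRF/5 they were low or near level. FHL2, a binding partner of the cleaved EPCAM fragment, differed by 0.81 in Huh7 and by 0.43 in PLC/PRF/5 on the log2 scale. These 4 genes were named for the size of their mean knockdown difference and do not stand for the whole list. The same holds for most genes named from the lists that follow. The list's median was 0.13 in Huh7 and near 0 in PLC/PRF/5, and 0 of its 17 fitted genes passed the knockdown test.

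Related protease inhibitor and junction genes also differed between the lines. SPINT2 was at 0.91 and 0.47 TPM in Huh7 knockdown and control cells against 278 and 318 TPM in PLC/PRF/5 knockdown and control cells, the opposite of SPINT1. The claudin CLDN7, which binds EPCAM, was at 13.4 TPM in Huh7 knockdown cells against 4.83 TPM in Huh7 control cells, and at 0.74 against 1.43 TPM in PLC/PRF/5. Over the list, 6 of 17 genes passed as higher in Huh7 and 9 as lower, to be read, as for every list that follows, beside the 28.3% and 31.5% of all genes fitted that did. SPINT2 and CLDN7 were chosen after their values were seen.

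Hyaluronan and CD44 partner genes had a median log2 fold change of 0.37 for Huh7 and of 0.24 for PLC/PRF/5. Of 10 genes considered in each line 6 were higher in both, where 46.5% of all genes were. TMEM2, which encodes a cell-surface hyaluronidase, was at 272 TPM in Huh7 knockdown cells against 134 TPM in Huh7 control cells, and at 186 against 125 TPM in PLC/PRF/5. HAS2, a hyaluronan synthase gene, was at 3.68 TPM in Huh7 knockdown cells against 1.14 TPM in Huh7 control cells, and at 0.02 TPM in both PLC/PRF/5 libraries. ESRP1, whose product favours the epithelial splice forms of CD44, was at 2.86 against 1.00 TPM in Huh7 knockdown and control cells and at 0.28 against 0.10 TPM in PLC/PRF/5. Each was higher in the Huh7 knockdown library, and HAS2 and ESRP1 were hardly found in PLC/PRF/5. The hyaluronidase gene HYAL1 was lower in knockdown cells of either line, differing by -0.51 in Huh7 and by -0.89 in PLC/PRF/5. Of 14 genes fitted, 0 passed the knockdown test, and between the lines 6 passed as higher and 5 as lower in Huh7. MSN (moesin), which links CD44 to actin and was chosen after its values were seen, was at 0.32 and 0.14 TPM in Huh7 knockdown and control cells against 127 and 140 TPM in PLC/PRF/5 knockdown and control cells.

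Of 12 partners of CD47 and CD24 in the control of phagocytosis, 7 reached 1 TPM in both Huh7 libraries and 6 in both PLC/PRF/5 libraries. The leukocyte receptors SIRPG and SIGLEC10 were at 0.29 TPM or less in every library, although SIRPA, also known from neurons, was at 43.0 and 57.8 TPM in Huh7 knockdown and control cells and 18.9 and 20.6 TPM in PLC/PRF/5 knockdown and control cells. THBS1, which encodes the secreted CD47 ligand thrombospondin-1, was at 146 TPM in Huh7 knockdown cells against 72.3 TPM in Huh7 control cells, and at 2.57 against 1.06 TPM in PLC/PRF/5. QPCTL, the enzyme that modifies CD47 for SIRPα binding, had log2 fold changes of -0.44 and -0.21, and B2M, the light chain of MHC class I, of 0.61 and 0.20. Of 7 genes fitted, 0 passed the knockdown test, and between the lines 4 passed as higher and 1 as lower in Huh7. LRP1, the phagocytic receptor for calreticulin, had log2 fold changes of -0.05 and -0.49.

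Among ICAM family and leukocyte adhesion genes, the receptor VCAM1 was at 11.7 TPM in Huh7 knockdown cells against 4.19 TPM in Huh7 control cells, and at 2.51 against 2.09 TPM in PLC/PRF/5. PVR, the poliovirus receptor, was higher in knockdown cells of either line, by 0.50 in Huh7 and by 0.54 in PLC/PRF/5 on the log2 scale, as was the mucin gene MUC1, by 0.45 and 0.66. ITGAL, the alpha chain of LFA-1, was at 6.05 TPM against 10.7 TPM in Huh7 knockdown and control cells and at 1.61 against 5.14 TPM in PLC/PRF/5. Its partner chain ITGB2 was listed at 0 in all 4 libraries. Of 11 genes fitted, 0 passed the knockdown test, and between the lines 5 passed as higher and 5 as lower.

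Aldehyde dehydrogenase and retinoid genes lay on both sides of 0, with a median of -0.02 for Huh7 and of -0.21 for PLC/PRF/5. The closest relatives ALDH1A2 and ALDH1A3 were at 0.28 TPM or less in every library. The retinol dehydrogenase gene RDH10, which makes the substrate of ALDH1A1, was at 57.7 TPM in Huh7 knockdown cells against 25.1 TPM in Huh7 control cells, and at 69.6 against 56.7 TPM in PLC/PRF/5. The retinoic acid receptor gene RARG had log2 fold changes of -1.11 and -0.67. ALDH8A1 had 0.96 in Huh7. In PLC/PRF/5 it was at 0.39 and 0.15 TPM in knockdown and control cells, too low for a fold change to be read. Of 17 genes fitted, 0 passed the knockdown test, and between the lines 7 passed as higher and 4 as lower in Huh7.

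Biliary and progenitor genes, the setting in which EPCAM, PROM1 and SOX9 are usually seen, had the highest median of the 8 partner lists in both lines, 0.51 in Huh7 and 0.37 in PLC/PRF/5, and of 10 genes considered in each line 8 were higher in both, where 46.5% of all genes were. The medians of the hepatocyte list, -0.30 and -0.73, lay on the other side of 0, though not all of its genes did. The part of the hepatocyte list in this was not tested. The biliary and progenitor list too was chosen with earlier results of these data known, so its median and count give no independent support. DLK1, a fetal progenitor gene chosen after its values were seen, was at 143 TPM in Huh7 knockdown cells against 428 TPM in Huh7 control cells, the 1 gene of the list at least 2-fold lower there. The type I keratin gene KRT23 was at 44.1 TPM in Huh7 knockdown cells against 10.2 TPM in Huh7 control cells, and at 134 against 104 TPM in PLC/PRF/5. The transcription factor gene ONECUT2 was at 48.1 against 25.0 TPM in Huh7 knockdown and control cells and at 24.5 against 12.5 TPM in PLC/PRF/5, a log2 fold change of 0.92 in each. The cadherin gene CDH6 was at 14.9 against 3.56 TPM in Huh7 knockdown and control cells and at 0.06 against 0.01 TPM in PLC/PRF/5. KRT19, the biliary keratin, had log2 fold changes of 1.04 and 0.82. SOX9 itself did not share this direction in Huh7. Of 13 genes fitted, 0 passed the knockdown test, and between the lines 10 passed as higher and 1 as lower in Huh7.

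Among membrane peptidases other than ANPEP, of 6 considered in each line 4 were higher in the knockdown cells of both and 0 lower in both, where 46.5% and 22.4% of all genes were. DPP4 (CD26) was at 140 TPM in Huh7 knockdown cells against 56.9 TPM in Huh7 control cells, and at 27.1 against 21.8 TPM in PLC/PRF/5, higher in Huh7 where ANPEP was lower. The aminopeptidase genes ENPEP and ERAP1 differed by 0.51 and 0.60 on the log2 scale in Huh7. In PLC/PRF/5, ERAP1 differed by 0.07 and ERAP2 by -0.82. ENPEP was at 0.31 and 0.30 TPM in PLC/PRF/5 knockdown and control cells, too low for a fold change to be read. The same holds for ERAP2 in Huh7, at 0.33 and 0.24 TPM in knockdown and control cells. Of 9 genes fitted, 0 passed the knockdown test, and between the lines 5 passed as higher and 3 as lower in Huh7.

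Other stem cell surface and efflux markers had medians of opposite sign, -0.16 for Huh7 and 0.28 for PLC/PRF/5. The haematopoietic marker CD34 and the receptor gene KIT were at 0.11 TPM or less in every library. The Wnt target receptor LGR5 was at 4.80 TPM in Huh7 knockdown cells against 10.3 TPM in Huh7 control cells, and at 16.0 against 4.86 TPM in PLC/PRF/5, the opposite signs of -0.96 and 1.53. GPC3, an oncofetal proteoglycan gene, was at 1071 and 1182 TPM in Huh7 knockdown and control cells against 44.9 and 66.3 TPM in PLC/PRF/5 knockdown and control cells. The complement inhibitor gene CD59 had log2 fold changes of 0.73 and 0.03, and CD99 of 0.25 and 0.24. CACNA2D1, a calcium channel subunit also used as a marker of these cells and chosen after its values were seen, was listed at 0 in Huh7 and was at 6.27 and 4.65 TPM in PLC/PRF/5 knockdown and control cells. Of 11 genes fitted, 0 passed the knockdown test, and between the lines 3 passed as higher and 5 as lower in Huh7.

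**Figure D4:**
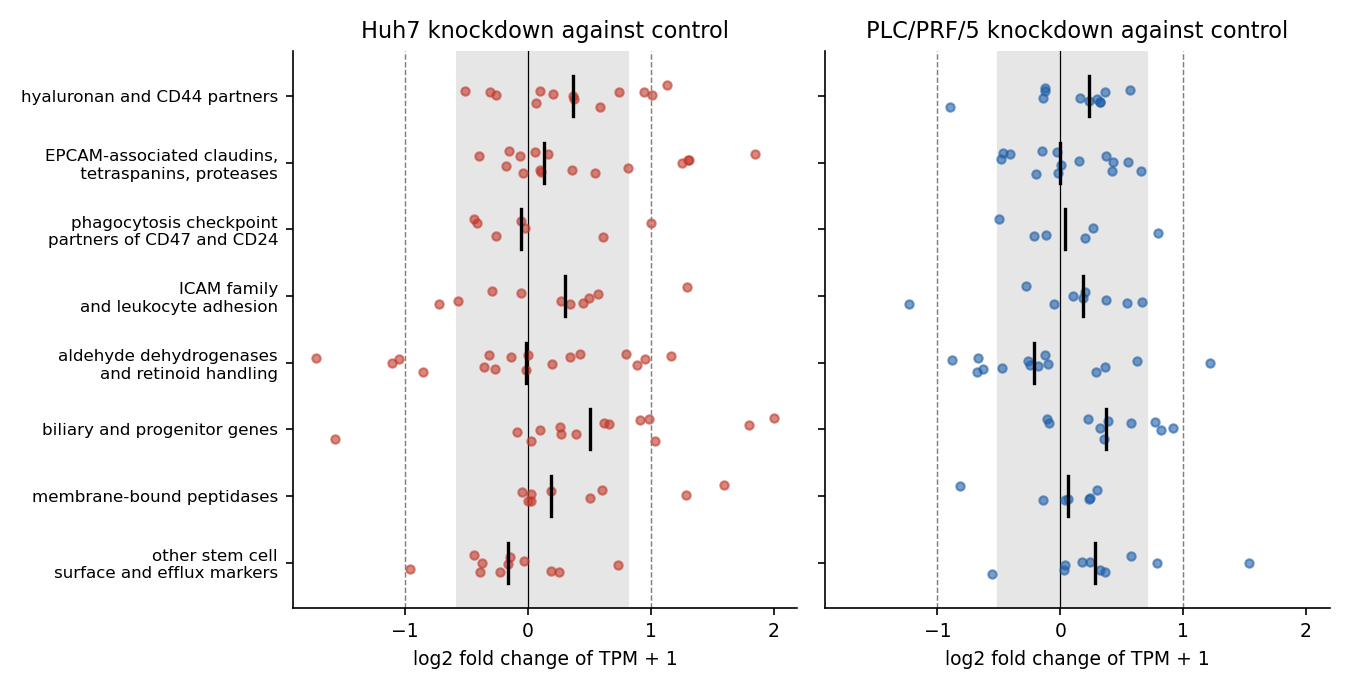
Log2 fold change of TPM + 1, knockdown against control, of the genes in 8 partner lists in Huh7 (left) and PLC/PRF/5 (right); each point is a gene with TPM of at least 1 in the pair, black bars are list medians, the grey band spans the 5th to 95th percentile of all genes and dashed lines mark 2-fold. Biliary and progenitor genes have the highest median in both lines (0.51 and 0.37), and the points past 2-fold on the right are mostly in Huh7. The lists were chosen with earlier results of these data known.

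The genes whose levels over the 4 libraries lay closest to those of a member, by Euclidean distance on log2(TPM + 1), were MT1M (0.397) and TMEM176A (0.429) for EPCAM and RARRES2 (0.468) and CTSZ (0.504) for PROM1. MT1M, a metallothionein gene, was at 107 and 42.7 TPM in Huh7 knockdown and control cells and listed at 0 in both PLC/PRF/5 libraries. For CD44 they were ZNF329 (0.418) and HIST1H2BC (0.487), and for ANPEP LTA4H (0.318) and IFI30 (0.398). LTA4H encodes another zinc aminopeptidase, and stood at 45.8 and 52.4 TPM in Huh7 knockdown and control cells against 134 and 166 TPM in PLC/PRF/5 knockdown and control cells. SOX9 lay closest to MPC1 (0.255), CD47 to ARID5A (0.141) and RABGAP1L (0.147), CD24 to RPL37 (0.313) and TUBB4B (0.328), ALDH1A1 to PKM (0.327) and UBB (0.411), and ICAM1 to MRPL13 (0.105) and MOB1A (0.118). A distance over 4 libraries ranks mostly on level and on the difference between the lines.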

How the data were processed

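The authors deposited 1 table per library with TPM by gene symbol, rounded to 2 decimals, per the file headers and values. Per the submitters' processing notes, reads were handled with cutadapt and RSEM 1.2.21 on hg19. The aligner, annotation and strandedness were not given in the sources used here. Whether reads were told apart where a gene and an antisense partner overlap is therefore unknown. SOX9-AS1 is listed under its own symbol, at 0.94 TPM or less in every library, where SOX9 was at 35.9 TPM or more. Every library has the same TPM total, so abundant transcripts move all other values, and the unit holds no depth, so no counting interval was made.

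Log2 fold changes were log2((TPM + 1)/(TPM + 1)), which understates changes of low genes. Per-line sizes were read among genes with TPM of at least 1 in the pair. The test used limma (3.58.1, under R 4.3.3): log2(TPM + 1) was fitted with terms for line and arm, a variance trend, 1 residual and 3.71 prior degrees of freedom, and Benjamini-Hochberg adjustment over 13813 genes with TPM of at least 1 in 2 libraries; tests were two-sided at 0.05. The fit was tested on simulated data whose noise was drawn from the fit's own variance estimates, so the simulation is no check of those estimates.

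Named genes were the members, SCD, the 4 fitted genes per partner list with the largest mean knockdown difference in size, and the 2 genes nearest to each member; others are said to have been chosen later, or mark a list's defining or lowest genes. A few of the genes so chosen are not reported here. The 8 partner lists share some genes, SPP1 among them. Members and lists were chosen with earlier results of these data known. Promoter windows came from RefSeq (GRCh38.p14), which held 7 of the 10 members; shared 30-base words came from GENCODE 29 transcripts. The alternatives changed the pseudocount (0.1 or 5), the filter (TPM of 5, or no filter), the scaling (median ratios), the variance trend and the other factor (each left out). Python 3.11.15 and matplotlib 3.10.9 drew the plots.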

Additional observations from a re-analysis of the deposited data

Results flagged for a closer look

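Members whose knockdown difference had opposite signs in the lines are listed, and the difference between the lines was not tested, since each group has 1 library. The log2 fold change in Huh7 minus that in PLC/PRF/5 was 1.52 for EPCAM, but its sign in PLC/PRF/5 rests on 0 against 0.11 TPM in knockdown and control cells, too low for a direction to be read. It was 0.46 for CD47, larger in size than for 82.4% of the genes considered in both lines. It was -0.50 for SOX9, larger in size than for 84.7%.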

How the results depend on the processing

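No paired analysis was possible because each group holds 1 library and the labels give no replicate numbers; for the same reason no library could be left out within a group. No member passed the knockdown test under any of the 7 alternatives, and of the 7 members that passed between the lines all passed under each alternative except ALDH1A1, which did not without the arm term, leaving 6. Members at least 2-fold different in Huh7 numbered 1 (EPCAM) with a pseudocount of 5 and with median-ratio rescaling, where CD44 was at 0.73 and 0.92. In PLC/PRF/5 they numbered 1 (CD44, at 1.16) with a pseudocount of 0.1. Genes passing the knockdown test numbered 2 with a pseudocount of 0.1 and 0 with a pseudocount of 5, without a filter, without the variance trend and without the cell line term. Unadjusted p under 0.05 was then reached by 2334, 2275, 2231 and 98 genes. The single sign that turned was that of SOX9 in PLC/PRF/5, -0.01 with median-ratio rescaling; the cause of these shifts was not tested. Rescaling factors ranged from 0.956 to 1.07. Depth is unknown, which limits every value under 1 TPM.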
